A study of Mus musculus with 13 samples.

Results

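Paraxial mesoderm and somite cells were taken from 3 single-cell RNA-seq libraries of wild-type C57Bl/6J mouse embryos, 1 of embryonic day 8.5 (E8.5) and 2 of E10.5. A cell counted as a member when it carried at least 3 unique molecular identifiers (UMIs, which mark single captured RNA molecules) of Meox1 and Tcf15 together, no UMI of the neural gene Sox2 and at most 1 UMI of the endothelial genes Pecam1 and Cdh5. The rule was applied to barcodes with at least 2000 UMIs and 500 detected genes, so members were chosen by their counts of these 5 genes. It picked 3544 members among 34605 such barcodes of the embryos and 76191 in all 10 matrices analysed. By the study's methods, embryos were dissected from the uterus and digested to single cells after head and limbs had been removed. Whether some head or limb tissue remained was not tested. The animals carried no transgene and had no treatment, and no source used here says how many embryos went into a library or of which sex they were. Nothing says that the E10.5 libraries came from separate embryos, so the spread between them may be technical. The second E8.5 sample of the labels was not analysed here. With 1 library at E8.5, no test between stages was run, and E8.5 and E10.5 cannot be told apart from the libraries they came in.

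Paraxial mesoderm lies on both sides of the neural tube. Its tail-side part, the presomitic mesoderm, is cut into somites one after another by the segmentation clock, a network of Notch, FGF and Wnt signals. Each somite is first an epithelial block marked by the homeobox gene Meox1 and the basic helix-loop-helix gene Tcf15. It then divides into sclerotome, which builds vertebrae and ribs and expresses Pax1 and Pax9, dermomyotome, which expresses Pax3 and Pax7 and holds the dermal and muscle precursors, and myotome, the first skeletal muscle, which is set up by the myogenic factors Myf5 and Myog.

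In the mouse build mm10, Meox1 lies on the minus strand of chromosome 11 from 101877510 to 101894374 and Tcf15 on the plus strand of chromosome 2 from 152143561 to 152149097. Pax1 lies on chromosome 2 from 147361925 to 147393295 and Pax9 on chromosome 12 from 56691767 to 56712822. Myf5 lies on chromosome 10 from 107482908 to 107486134, Myog on chromosome 1 from 134289989 to 134292548, and Pax3 on chromosome 1 from 78101267 to 78197134. All of these are protein-coding genes in the annotation, and the files count UMIs for a whole gene rather than for an exon.

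With all UMIs counted, members made up nearly equal shares of the barcodes in the 3 libraries. At E8.5, 577 of 5657 barcodes met the rule, or 10.2% with an exact 95% binomial interval (Clopper-Pearson) of 9.42% to 11%. At E10.5, 1501 of 14667 barcodes of replicate 1 did, or 10.2% (9.75% to 10.7%), and 1466 of 14281 barcodes of replicate 2, or 10.3% (9.77% to 10.8%). The intervals overlap, and like all intervals here they cover counting error only. The sum of Meox1 and Tcf15 alone would have admitted 678, 1926 and 1903 barcodes of the same libraries. Sox2 removed 86, 332 and 338 of these and the endothelial genes 18, 111 and 113, with some barcodes removed on both counts. The rule uses fixed UMI limits, so its shares depend on depth, which was higher at E8.5. With barcodes thinned at random to 5000 UMIs and shallower ones left out, the share was 5.98% at E8.5. The E10.5 mean was then 6.83%.

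Members had more UMIs in the median than the other barcodes of their library, and those of E8.5 had more than those of E10.5. The library totals were 151735273 UMIs at E8.5 and 259041468 and 254118869 UMIs at E10.5. A member held a median of 25334 UMIs at E8.5 and of 17703 and 17425 UMIs in the E10.5 libraries, against 24391.5, 14086.5 and 14516 UMIs in the other barcodes. Shares of cells that carry a gene are therefore given both from all UMIs and after each cell was thinned at random to 2000 UMIs. The median mitochondrial share was 1.59% at E8.5 and 2.23% and 2.17% at E10.5. A doublet score, cut at the number of doublets that the loading of a library would give, marked 1.39% of the E8.5 members and 10.3% and 9.89% of the E10.5 members, against 4.53%, 11.7% and 11.4% of all barcodes. The E8.5 library shared 106 and 104 barcode sequences with the E10.5 libraries, which shared 263 with each other, and between 1 and 3 of the shared barcodes were members in both libraries of a pair.

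Somite genes that the rule did not use stood higher in members than in other barcodes. Levels below are CPM, the UMIs of a gene summed over a group of cells in a library and divided by all UMIs of those cells, times 1000000, in the order E8.5, E10.5 replicate 1, E10.5 replicate 2. Meox2, the partner homeobox gene of Meox1 in somites, stood at 38.9, 43.1 and 40.7 CPM in members and at 0.913, 2.50 and 2.66 CPM in the other barcodes. Foxc2, a forkhead factor of presomitic and somitic mesoderm, stood at 48.4, 38.6 and 34.9 CPM against 4.23, 6.34 and 7.22 CPM. Both stood above the other barcodes of every library. Dmrt2, which keeps the dermomyotome epithelial, stood at 12.1, 18.4 and 22 CPM against 0.263, 0.867 and 0.965 CPM.

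The 8 somite markers summed to 869 CPM at E8.5 and to 947 and 945 CPM at E10.5 in members, against 52.4, 108 and 109 CPM in the other barcodes. Meox1 and Tcf15 are among the 8, so the rule itself set much of this gap. The rule did not use the others of the 8, which are Meox2, Foxc1, Foxc2, Pax3, Uncx and Tbx18. It did not use Dmrt2 either, which is not among the 8. Markers of other cell types were lower in members than in the other barcodes in most lists. The 6 neural markers summed to 7.58, 24.4 and 27.7 CPM against 162, 305 and 292 CPM, with Sox2 at 0 by the rule. The 5 endothelial markers summed to 39.6, 38.2 and 37.5 CPM against 120, 133 and 127 CPM. Pecam1 and Cdh5 are among these 5 and were capped by the rule, so the rule itself set part of that gap. The 5 cardiomyocyte markers summed to 59.2, 28.2 and 73.9 CPM against 674, 237 and 253 CPM. Intermediate mesoderm markers were higher in members at E8.5 and in replicate 1 of E10.5, with 16, 13.9 and 11.7 CPM against 10.0, 12.8 and 13.6 CPM. Notochord and tail bud markers were at like levels at E8.5, with 16.3 against 16.2 CPM, and lower in members at E10.5. Limb mesenchyme markers, which share Prrx1 with somites, were higher in members of each library, at 33.1, 59.5 and 62.4 CPM against 24.1, 56.2 and 54.4 CPM. Erythroid markers, mostly globins, summed to 409, 1733 and 1877 CPM in members and to 3572, 7181 and 7769 CPM in the other barcodes. They were higher at E10.5 in both groups of barcodes, and their part in any difference between the stages was not tested.

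Some UMIs of Meox1 and Tcf15 were found in barcodes with markers of other cell types. Among barcodes with at least 3 UMIs of Sox2, 3.00% at E8.5 and 4.29% and 4.15% at E10.5 held at least 3 UMIs of Meox1 and Tcf15, at median depths of 30391, 18732.5 and 19027 UMIs. Among barcodes with at least 4 UMIs of Pecam1 and Cdh5 the shares were 10.7%, 24.8% and 26.9%. Endothelial barcodes thus reached 3 UMIs more often than neural ones. They were also deeper, at medians of 33538, 21564.5 and 23153 UMIs, and the part of depth was not tested. Both groups were kept out of the members. Among erythroid barcodes the shares were 1.28%, 2.88% and 3.88%.

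The threshold of 3 UMIs fell within a range of levels. Meox2, which the rule did not use, stood at 2.33 CPM in the 107 E8.5 barcodes with exactly 2 UMIs of Meox1 and Tcf15, at 6.01 CPM in the 71 with exactly 3, and at 50.4 CPM in the 355 with 10 or more. In replicate 1 of E10.5 the same steps gave 8.68, 13.2 and 48.7 CPM, and in replicate 2 they gave 10.54, 20.5 and 49.8 CPM. By Meox2, barcodes just inside the threshold were nearer to those just outside it than to the members with many UMIs. Foxc1 gave another order at E10.5, at 39.8, 60.6 and 58.4 CPM in replicate 1 and at 36.8, 54.9 and 57.3 CPM in replicate 2, where barcodes with 3 UMIs were close to those with 10 or more.

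Most members carried both genes of the rule. At E8.5, 80.9% did, and at E10.5 79.8% and 80.3%. Meox1 without Tcf15 was found in 85 members at E8.5 (14.7%) and in 169 and 150 at E10.5 (11.3% and 10.2%). Tcf15 without Meox1 was found in 25 members at E8.5 (4.33%) and in 134 and 139 at E10.5 (8.93% and 9.48%). The median member held 6 UMIs of each gene at E8.5 and between 4 and 5 of each at E10.5.

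**Figure D1:**
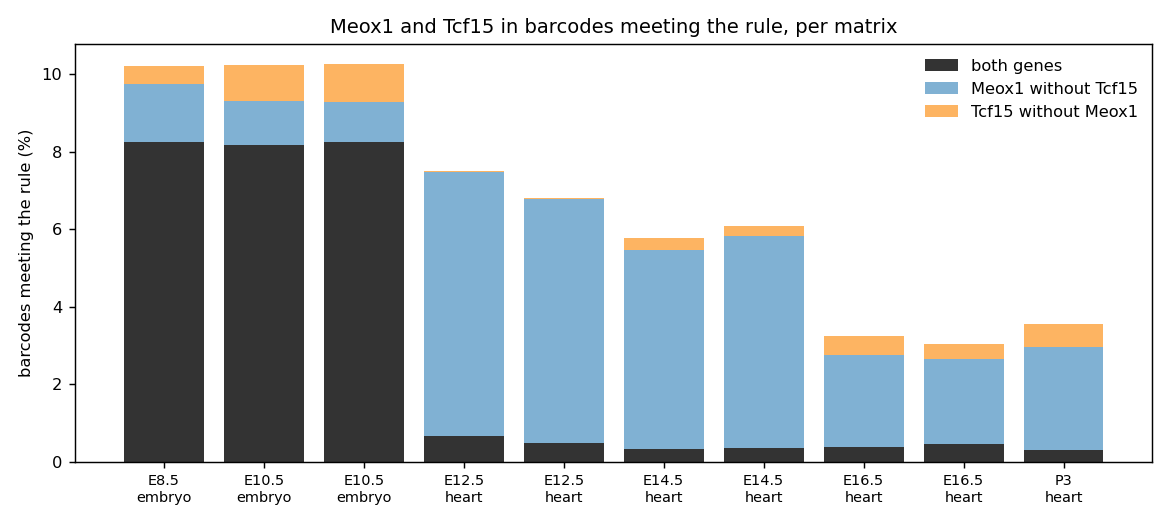
Bars give the share of barcodes that met the rule in each of the 10 matrices, in percent, stacked by which of Meox1 and Tcf15 the barcode carried. In the 3 embryo libraries the bars reach 10.2% to 10.3% and most of each is cells with both genes, while in the heart matrices Meox1 without Tcf15 makes up most of the bar.

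The members with only 1 of the genes differed from those with both in other markers. Members with Meox1 but no Tcf15 carried at least 2 of 4 intermediate mesoderm markers (Pax2, Pax8, Lhx1 and Wt1, genes of the kidney field) in 15.3% of cells at E8.5 and in 8.88% and 12% at E10.5, against 0.857%, 1.00% and 0.595% of members with both genes. At least 2 neural crest markers were found in 20%, 5.92% and 7.33% of them, against 1.28%, 1.34% and 1.02% of members with both genes. For lateral plate markers the shares were 11.8%, 10.1% and 9.33% against 2.57%, 2.67% and 3.40%. Cardiomyocyte and limb mesenchyme markers were not higher in every library. These cells met the rule but held genes of other tissues more often, so the markers bear out the somite label less well in them than in cells with both genes. Members with Tcf15 but no Meox1 carried a UMI of the presomitic genes Tbx6, Msgn1 or Mesp2 in 28% of cells at E8.5 (7 of 25) and in 9.70% and 9.35% at E10.5, against 8.57%, 3.67% and 3.23% of members with both. At E10.5, none of the 169 and 150 members with Meox1 alone did, which allows shares of up to 1.78% and 2.00%. Tcf15 without Meox1 was also the class with the most limb mesenchyme markers (at least 2 of Prrx1, Tbx5 and Lmx1b) in replicate 2 of E10.5, at 14.4% against 1.36% of members with both genes, while replicate 1 gave 5.97% against 2.17%.

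The sclerotome share was higher at E10.5. Pax1, a paired box factor of the ventral somite, was detected in 16.3% of members at E8.5 and in 30.5% and 29.1% at E10.5, and Pax9, its close relative, in 8.67%, 21.9% and 21.8%. A UMI of either was found in 22% of members at E8.5 (18.7% to 25.6%) and in 37.2% (34.7% to 39.7%) and 36.6% (34.2% to 39.2%) at E10.5. After thinning to 2000 UMIs the shares were 2.60% at E8.5 (15 cells, 1.46% to 4.25%) and 12.8% (11.1% to 14.6%) and 10.8% (9.30% to 12.6%) at E10.5. The intervals of E8.5 lay below those of both E10.5 libraries with and without thinning. Neural barcodes, which should lack these genes, gave 0.514%, 0.875% and 0.80% after thinning and 2.91%, 4.73% and 4.77% without it. Nkx3-2, a homeobox gene that acts after Pax1 and Pax9 in sclerotome, was found in 0 of 577, 0 of 1501 and 1 of 1466 members. Taken as 3 counts over the cells, the upper bounds on detection for the first pair are 0.520% and 0.200%.

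The myotome share was smaller at each stage. Myf5, the earliest myogenic factor of the somite, was found in 7.11% of members at E8.5 and in 9.59% and 11.1% at E10.5, and Myog, which drives muscle differentiation, in 1.21%, 3.06% and 3.62%. A UMI of either was found in 7.63% (5.6% to 10.1%) of members at E8.5 and in 10.7% (9.14% to 12.3%) and 12.6% (10.9% to 14.4%) at E10.5, so that the interval of E8.5 overlapped that of replicate 1 but not that of replicate 2. After thinning to 2000 UMIs the shares were 1.21% (0.489% to 2.48%) at E8.5 and 2.93% (2.14% to 3.92%) and 3.00% (2.19% to 4.01%) at E10.5. These thinned intervals overlap. They cover counting error over the cells of a library only, so neither overlap nor a gap between intervals tests a difference between the stages. Thinned to 5000 UMIs, with shallower cells left out, the share was 2.13% of 563 E8.5 members against a mean of 6.00% at E10.5. Neural barcodes gave 0%, 0.146% and 0.154% after thinning to 2000 UMIs, the first from 0 of 1167 cells, which allows up to 0.257%.

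A dermomyotome pair (Pax3 and Pax7) and a presomitic set (Tbx6, Msgn1 and Mesp2) were added after the data had been seen. Pax3 or Pax7 was found in 37.4% of members at E8.5 and in 33.4% and 37.0% at E10.5, and after thinning in 7.45%, 9.19% and 10.4%. Neural barcodes gave 4.97%, 10.6% and 9.66% after thinning, and the dorsal neural tube is known to express Pax3, so this pair does not tell somite from neural tube. Pax3 carried nearly all of it at E8.5, where Pax7 was found in 0.867% of members against 7.46% and 7.16% at E10.5. The presomitic set was found in 8.32% of members at E8.5 and in 3.80% and 3.48% at E10.5, and after thinning in 2.08% (1.08% to 3.60%), 1.47% and 1.09%. The order of the stages was that of the unthinned shares, but the thinned interval of E8.5 holds both E10.5 values. Members with none of the 4 gene sets made up 38.3% at E8.5 and 30.6% and 27.5% at E10.5 before thinning.

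**Figure D2:**
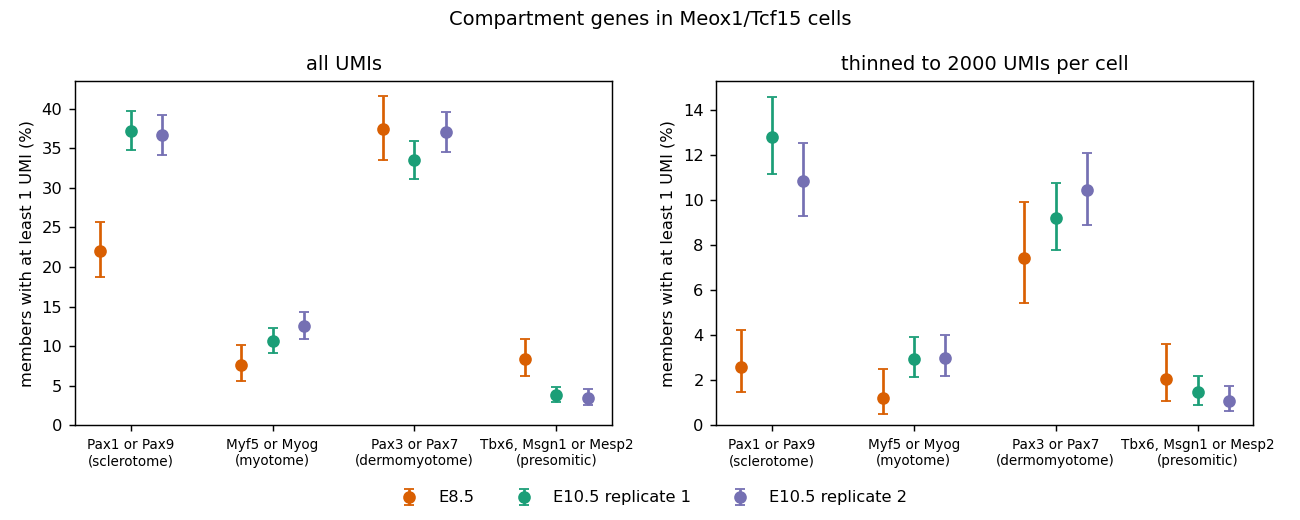
Points give the percentage of members with at least 1 UMI of the genes named under each group, from all UMIs (left) and after each cell was thinned to 2000 UMIs (right), and bars are exact 95% binomial intervals for each library. The sclerotome share of E8.5 (22%, thinned 2.60%) lies below both E10.5 libraries in both panels, while the thinned myotome and presomitic intervals of the stages overlap.

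UMIs of different compartments were found together in some single cells. Sclerotome and myotome UMIs met in 1.04% of members at E8.5 and in 2.53% and 2.25% at E10.5. Myotome and dermomyotome UMIs met in 5.72%, 8.33% and 9.75%, which is most of the cells with a myotome UMI. Of the members with at least 2 UMIs of Myf5 and Myog, 18 of 19 at E8.5 (94.7%) and 65 of 83 and 78 of 100 at E10.5 (78.3% and 78.0%) also carried Pax3 or Pax7, against 34.3%, 28.1% and 31.2% of members with no myotome UMI. Of the same cells, 10.53%, 28.9% and 12% carried Pax1 or Pax9, against 22.7%, 38.8% and 39.3% of members with no myotome UMI. The E10.5 replicates lay apart here, at 28.9% and 12%. Cells marked as doublets stayed in, at 1.39% of E8.5 members and 10.3% and 9.89% of E10.5 members. The part of doublets or stray RNA in these overlaps was not tested.

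Between the stages, 8125 genes passed a filter of 5 CPM on the mean of the E8.5 level and the E10.5 level, and genes of the rule were left out. A gene was called higher at a stage when log2 of (CPM + 1) differed by at least 1, that is 2-fold, against each E10.5 library. By that measure 178 genes (2.19%) were higher in E8.5 members and 308 (3.79%) in E10.5 members, and scaling by edgeR's TMM factors in place of the totals moved this split to 311 and 239, with the median fold shifted by 0.14 on the log2 scale towards E8.5. Between the E10.5 libraries themselves, 2 genes (0.0246%) passed 2-fold, and the median absolute difference was 0.06. The median log2 fold of all genes, E8.5 over E10.5, was -0.09. The genes called at E8.5 had a median of 1.19 in members and of 0.72 in the other barcodes, and those called at E10.5 of -1.36 and -1.11. A large part of each set thus moved in the same direction in barcodes that were not members.

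The genes with the highest fold at E8.5 were of several kinds. Some, such as Etv2, Lhx1, Wfdc21 and Phlda2, were under 5 CPM in E10.5 members and passed the filter only through the E8.5 members. Their calls were thus partly fixed by the filter. With a filter of 20 CPM, 13 of the 20 leading E8.5 genes were still called. Etv2, an ETS factor that specifies blood and endothelial progenitors, stood at 18.9 CPM in E8.5 members and at 1.54 and 1.06 CPM in E10.5 members. The other barcodes gave 9.32, 1.74 and 1.71 CPM, so the E8.5 level was higher in members than outside them. Lhx1, a LIM homeobox gene of intermediate mesoderm, stood at 8.89, 1.86 and 1.53 CPM in members but at 2.34, 3.16 and 3.58 CPM in the other barcodes, where it was lower at E8.5. Its divergent noncoding neighbour Lhx1os moved with it, at 11.6, 2.36 and 2.45 CPM. Lhx1 lies on chromosome 11 from 84518284 to 84525535, and Lhx1os starts beside it on the opposite strand at 84525660. A UMI of Lhx1 was found in 7.45% of E8.5 members and in 1.60% and 1.77% of E10.5 members. Lhx1 belongs to the intermediate mesoderm markers. At least 2 of these were found in 15.3% of E8.5 members with Meox1 but no Tcf15 and in 0.857% of those with both genes. The part of the former cells in the level of Lhx1 was not tested.

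Ripply2, a transcriptional repressor that sets the somite boundary, stood at 21.4 CPM in E8.5 members and at 4.18 and 5.63 CPM at E10.5. It was close to absent from the other barcodes at 0.642, 0.479 and 0.541 CPM. Arg1, an arginase, stood at 186, 54.5 and 50.2 CPM in members and at 24.0, 10.2 and 10.3 CPM outside them, and Ifitm1, an interferon-induced membrane protein gene of early mesoderm, at 312, 70.9 and 72.5 CPM against 198, 30.2 and 33.3 CPM. Wfdc21 stood at 13.2, 0.107 and 0.256 CPM in members and at 0.457, 0.0431 and 0.0439 CPM in the others. Phlda2, an imprinted gene that restrains growth of the placenta, was higher at E8.5 in both, with 21.2, 2.36 and 2.52 CPM in members and 63.3, 3.80 and 3.90 CPM in the others.

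The leading E8.5 genes also held general cell machinery, with no list behind that grouping. Psmb5, a catalytic subunit of the proteasome, stood at 379, 110 and 116 CPM in members and at 335, 163 and 168 CPM in the other barcodes. Psmc4, an ATPase of the same complex, stood at 213, 68.0 and 71.4 CPM. Hsp90aa1, a cytosolic chaperone, stood at 2329, 789 and 768 CPM in members and at 2128, 1044 and 1029 CPM in the others. Brix1 and Rpf2, which assemble the large ribosomal subunit, stood at 127, 39.4 and 37.0 CPM and at 85.3, 26.1 and 26.1 CPM. Each of these genes was also higher at E8.5 in the other barcodes. Exosc7, Eif4a3, Emc2, Ddx39, Nup43, Ppid and Plac8 made up the rest of the 20.

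The genes with the highest fold at E10.5 included homeobox genes and other regulators next to genes of other kinds. Several, among them En1, Tbx3, Barx1, Rgmb and Dnm3os, were under 5 CPM in E8.5 members and passed the filter only through the E10.5 members. Their calls were thus partly fixed by the filter. With a filter of 20 CPM, 7 of the 20 leading E10.5 genes were still called. En1, a homeobox gene of the central dermomyotome, was at 0.264 CPM in E8.5 members and at 21.6 and 19.3 CPM at E10.5. In the other barcodes it was at 18.3, 12.9 and 12.6 CPM, so it did not follow the stage outside the members. Twist1, a mesenchymal regulator that holds back muscle differentiation, stood at 37.4, 246 and 220 CPM in members and at 16, 94.0 and 83.0 CPM in the others. Its share of members with a UMI was 50.1% at E8.5 and 80.5% and 80.3% at E10.5, and 7.80%, 36.6% and 34.4% after thinning. Zic1, a zinc finger factor of the dorsal somite, stood at 14.6, 88.6 and 91.1 CPM. Tbx3, a T-box repressor, stood at 1.58, 12.2 and 11.4 CPM, and Barx1 at 0.461, 14.8 and 14.1 CPM.

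Dlk1, an imprinted Notch-related ligand of mesenchymal precursors, stood at 104 CPM in E8.5 members and at 541 and 559 CPM in E10.5 members, and at 67.3, 257 and 262 CPM in the others. Ppp1r14b stood at 115, 828 and 715 CPM, Rgmb, a BMP co-receptor, at 4.68, 28.4 and 30.0 CPM, and Dnm3os, a noncoding RNA that hosts microRNAs, at 4.02, 25.1 and 24.3 CPM. Each of these was also higher at E10.5 outside the members. Ppp1r14b stood there at 106, 577 and 493 CPM, Rgmb at 1.87, 9.01 and 9.35 CPM, and Dnm3os at 0.867, 6.71 and 6.68 CPM. Myog, which gates the myotome here, stood at 1.32, 12.6 and 14.1 CPM in members.

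**Figure D3:**
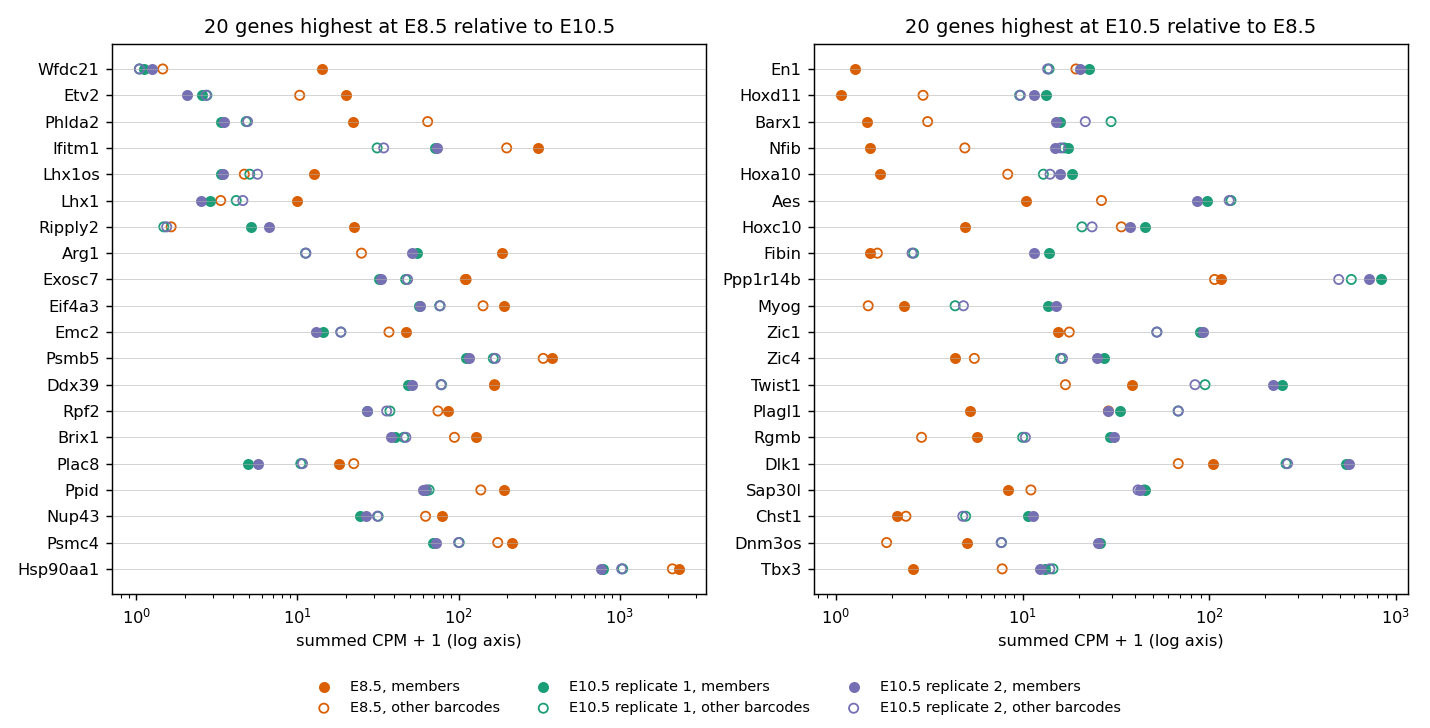
For the 20 genes with the highest fold at each stage, points give CPM + 1 on a log axis, filled for members and open for the other barcodes of the same library. Lhx1 and Ripply2 are high in E8.5 members only, Psmb5 and Hsp90aa1 are higher at E8.5 in members and others, and En1 is near 1 in E8.5 members but not in the other E8.5 barcodes.

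Read by list, sclerotome genes were often higher at E10.5. Of 19 listed genes 13 were tested, 7 were higher at E10.5 and none at E8.5, with a median log2 fold of -1.21 against -0.09 for all genes. Among all tested genes, 3.79% were called at E10.5 and 2.19% at E8.5. The same 13 genes had a median of -1.36 in the other barcodes, so the same direction was seen outside the members. Pax1 stood at 12.6 CPM at E8.5 (exact Poisson interval 10.9 to 14.6) and at 50.8 and 41.8 CPM at E10.5, and Pax9 at 5.14, 22.3 and 20.9 CPM. Sox9, the master factor of cartilage, stood at 42.3, 103 and 98 CPM, and Uncx, a homeobox gene of the caudal side of a somite, at 28.5, 65.4 and 69.1 CPM. Gas1, a cell surface protein that binds Sonic hedgehog, stood at 48.2, 130 and 143 CPM. Tbx18, also on the list, was not called.

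General somite genes differed less between the stages than the sclerotome list in the median log2 fold, at -0.27 against -1.21 in members. In the other barcodes the general somite genes had a median of -0.76. Of 20 listed genes 19 were tested, none was called at E8.5, and Uncx and Twist1 were called at E10.5. Over all tested genes 3.79% were called at E10.5, so this count by itself is not read as a small difference. Pax3 stood at 42.1, 58.2 and 57.8 CPM, Foxc1 at 43.7, 61.7 and 60.3 CPM, and Tbx18, a T-box gene of the rostral side of a somite, at 12.6, 12.8 and 13.4 CPM. None of these genes passed 2-fold. Aldh1a2, which makes retinoic acid in somites, was at 82.3 CPM at E8.5 and at 43.7 and 36.2 CPM at E10.5, against 10.7, 9.90 and 10.52 CPM in the others. It passed 2-fold against replicate 2 but not against replicate 1, and none of the 11 tested retinoic acid genes was called.

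Of the 12 tested genes of the presomitic list, Ripply2 and Cited1 were higher at E8.5 and none at E10.5. Among all tested genes the shares were 2.19% and 3.79%, and counts this small in a short list are not read as a result. Cited1, a transcriptional co-regulator, stood at 83.6, 40.7 and 39.8 CPM. Hes7, the oscillating repressor of the clock, was at 15.8, 10.46 and 12.02 CPM, and Dll1, a Notch ligand, at 5.67, 5.00 and 5.37 CPM. T (Brachyury), which drives mesoderm formation in the tail bud, was also called at E8.5, with 12.4, 4.07 and 3.87 CPM, and the other barcodes gave 12.9, 3.40 and 4.45 CPM.

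Dermomyotome and muscle lists held few tested genes, and their counts stand beside the 3.79% of all tested genes called at E10.5. Of 10 tested dermomyotome genes 3 were higher at E10.5, En1, Lbx1 and Zic1. Lbx1, which marks muscle precursors that migrate into the limb, stood at 1.38, 10.46 and 9.17 CPM and was found in 2.25% of members at E8.5 and in 5.06% and 4.02% at E10.5. Of 4 tested myogenic regulators Myf5 (4.41, 12.7 and 12.8 CPM) and Myog were higher at E10.5. Of 11 tested contractile genes only Mylpf, a myosin light chain of fast muscle, was called, at 2.77, 8.93 and 11.8 CPM. The heart genes on that list, such as Tnnt2 at 8.63, 4.79 and 9.21 CPM, did not pass. En1, Lbx1, Myf5, Myog and Mylpf were under 5 CPM in E8.5 members and passed the filter only through the E10.5 members. The counts of these lists were thus partly fixed by the filter.

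Signalling lists held few called genes, and counts this small in short lists are not read as a result. Over all tested genes, 2.19% were called at E8.5 and 3.79% at E10.5. None of the 11 tested FGF genes was called in either direction, 1 of 16 Wnt genes was called at each stage (T at E8.5 and the Wnt feedback gene Nkd1 at E10.5), and of 15 BMP and TGF-beta genes Bmp4 was called at E10.5 with 6.00, 19.2 and 16.2 CPM. Gas1 was the single called gene among 7 tested hedgehog genes. Ptch1, the Sonic hedgehog receptor and target, stood at 24.6, 31.7 and 28.2 CPM and did not pass.

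Growth, metabolic and stress lists stand beside the 2.19% of all genes called at E8.5 and the 3.79% called at E10.5. In lists this short, counts of 1 or 2 genes are not read as a result. Of 14 tested imprinted growth genes 5 were higher at E10.5 (Dlk1, Cdkn1c, Peg3, Peg10 and Plagl1) and Phlda2 at E8.5. Cdkn1c, a cell cycle inhibitor, stood at 110, 249 and 258 CPM in members and at 115, 258 and 260 CPM in the others. Of 31 cell cycle genes Cdk1 (220, 91.7 and 93.4 CPM) and Tyms (149, 58.8 and 60.1 CPM) were higher at E8.5 and 1 was higher at E10.5. The list had a median of 0.29. Of 12 tested immediate early and stress genes 5 were higher at E10.5, Fos, Jun, Junb, Jund and Egr1, which are known to respond to tissue dissociation. Jund stood at 70.0, 225 and 221 CPM in members and at 63.1, 217 and 211 CPM in the others. The part of dissociation in the stage differences was not tested, and the same direction was seen outside the members. Of 17 tested glycolysis and hypoxia genes Pgam1, a glycolytic enzyme, was higher at E8.5 (790, 376 and 389 CPM) and Ldhb and Bnip3 at E10.5, Bnip3 with 27.5, 80.2 and 83.3 CPM. Lin28a, an RNA-binding protein of early embryos, was the called gene among 11 tested heterochronic genes, at 48.0, 23.2 and 22.1 CPM.

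Hox genes of the 9 to 13 paralog groups, which pattern the lumbar to tail region, were higher at E10.5 in the median. Their median log2 fold, E8.5 over E10.5, was -1.61 in members and -0.34 in the other barcodes. It was the lowest among the 22 lists, cell type marker lists not counted. Of 16 listed genes 7 were tested and Hoxa10, Hoxc9, Hoxc10 and Hoxd11 were higher at E10.5, against 3.79% of all tested genes. Hoxa10, Hoxc10 and Hoxd11 were under 5 CPM in E8.5 members and passed the filter only through the E10.5 members. The count and the median of this list were thus partly fixed by the filter. Hoxc10 stood at 3.89, 44.4 and 36.8 CPM in members and at 32.8, 19.8 and 22.6 CPM in the other barcodes, where it was highest at E8.5. Hoxd11 stood at 0.0659, 12.4 and 10.52 CPM in members and at 1.93, 8.64 and 8.73 CPM in the others. Hoxb9, in contrast, was not called at 42.4, 53.0 and 56.8 CPM. Of 9 tested genes of paralogs 5 to 8, Hoxc5, Hoxc6 and Hoxc8 were higher at E10.5.

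The compartments were then compared inside each library, where depth and library do not separate the groups by stage. Cells with at least 2 UMIs of Pax1 and Pax9 and none of Myf5 and Myog (69, 366 and 339 members) were set against members with none of the 4 genes (412, 821 and 778). Genes past 2-fold in each E10.5 library were called, and E8.5 values stand beside them. The gate selects cells by their own counts, so these values are descriptions and no test was run. The median depth of the gated cells was 27171, 17946 and 16865 UMIs against 24702, 17421 and 17419.5 UMIs.

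Of 8358 genes, 39 (0.467%) were higher in sclerotome-gated cells and 57 (0.682%) lower. Of 12 tested genes of the sclerotome list other than the gate's own, 5 were higher, among them Foxd1, Sox9, Uncx and Tbx18, and Gas1 was lower. Foxd1, a forkhead factor, stood at 56.8 CPM in gated E8.5 cells and at 24.3 CPM in their reference, at 123 against 40.5 CPM in E10.5 replicate 1 and at 106 against 35.2 CPM in replicate 2. Sox9 stood at 86.0 against 34.4, 203 against 71.5 and 197 against 62.3 CPM. Both genes were higher in the gated cells of each library, E8.5 included.

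Matrix genes followed. Col9a1, a collagen of cartilage, stood at 47.3 against 18.5, 52.2 against 16.6 and 53.9 against 13.4 CPM, and Lum, the proteoglycan lumican, at 40.7 against 10.1, 26.6 against 5.03 and 29.4 against 5.09 CPM. Has2, which makes hyaluronan, stood at 20.1 against 9.84, 19.5 against 4.97 and 20.2 against 4.18 CPM, and Hapln3, which links hyaluronan to proteoglycans, at 13.6 against 5.83, 11.1 against 1.72 and 12.3 against 1.95 CPM. Of 11 tested cartilage and matrix genes 4 were higher and none lower (median 0.91, against 0.02 for all genes). Has2 and Hapln3 are under 5 CPM in the E10.5 reference and passed the filter only through the gated cells. A count or median that includes such genes was partly fixed by the filter and supports nothing by itself. Saa1 and Saa2, near-identical serum amyloid genes whose reads may be shared, were higher as well, Saa1 at 35.2 against 19.6, 22.7 against 2.78 and 24.5 against 4.39 CPM.

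AI646519 had the highest fold, with 41.7 against 4.30, 65.6 against 3.91 and 62.0 against 4.32 CPM. It is an antisense transcript on chromosome 2 from 147357454 to 147362793 that overlaps the start of Pax1 on the other strand. Whether the counting used strand is not given in the sources used here, so its UMIs and those of Pax1, a gene of the gate, cannot be told apart with certainty.

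Of 10 tested hedgehog genes 3 were higher in the gated cells, 2 were lower and the median was 0.05. Ptch1 stood at 34.7 against 21.5, 53.1 against 21.3 and 47.5 against 20.8 CPM, and Gli1, a transcription factor induced by the pathway, at 8.55 against 4.11, 8.29 against 3.51 and 10.3 against 2.37 CPM. Foxf1 was the third gene called higher. Gli1 is under 5 CPM in the E10.5 reference and passed the filter only through the gated cells. The co-receptor genes Gas1 (25.6 against 54.7, 67.6 against 145 and 78.0 against 161 CPM) and Cdon (4.53 against 5.45, 4.51 against 12.7 and 5.17 against 13.9 CPM) were lower by 2-fold in both E10.5 libraries, while the co-receptor Boc did not pass, at 2.01 against 4.49, 5.24 against 7.68 and 5.49 against 9.20 CPM.

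Dermomyotome genes were often lower in the sclerotome gate, at 6 of 9 tested. Pax3 stood at 11.6 against 47.7, 6.11 against 75.0 and 10.8 against 69.0 CPM, and Dmrt2 at 2.51 against 13.1, 1.02 against 23.8 and 3.39 against 29.3 CPM. Lbx1, En1 and Wnt6 were among the others. Dmrt2 is under 5 CPM in the gated E10.5 cells and passed the filter only through the reference. The count of this list was thus partly fixed by the filter and supports nothing by itself. Of the presomitic list, Hes7 was lower at 2.51 against 22, 3.05 against 17.5 and 1.94 against 19.9 CPM. Of the posterior Hox list, Hoxc10, Hoxd10 and Hoxd11 were lower among 8 tested.

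Some genes of the E10.5 sclerotome gate were not higher in the E8.5 gate. Pcp4, a calmodulin-binding peptide, stood at 237 against 48.7 and 268 against 46.8 CPM at E10.5 but at 42.2 against 56.7 CPM at E8.5. Uncx stood at 111 against 41.3 and 120 against 42.3 CPM at E10.5 and at 22.1 against 25.7 CPM at E8.5. The difference between the stages was not tested. Tbx18, which marks the opposite side of a somite from Uncx, stood at 22.1 against 11.1, 19.3 against 9.01 and 21.6 against 10.0 CPM.

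Cells with at least 2 UMIs of Myf5 and Myog and none of Pax1 and Pax9 numbered 17, 59 and 88, against the same reference cells. At E10.5 genes of the muscle program stood higher in these cells than in the reference, while several of these genes had no UMI in the 17 gated E8.5 cells. Promoters of 3 genes of the program are shown. Myog was taken because it defined the gate, and Mylpf and Tnnc2 because they are fast muscle genes that were among the 15 highest folds. The sequences are RefSeq promoters of build GRCm38.p6, from 250 bases before to 50 bases after the start, and capitals mark CANNTG, the E-box letters that myogenic basic helix-loop-helix factors can bind, which read the same on both strands in their fixed letters. They lie at chr1:134289754-134290053 on the plus strand (Myog), chr7:127211358-127211657 on the plus strand (Mylpf) and chr2:164779685-164779984 on the minus strand (Tnnc2).
Myog: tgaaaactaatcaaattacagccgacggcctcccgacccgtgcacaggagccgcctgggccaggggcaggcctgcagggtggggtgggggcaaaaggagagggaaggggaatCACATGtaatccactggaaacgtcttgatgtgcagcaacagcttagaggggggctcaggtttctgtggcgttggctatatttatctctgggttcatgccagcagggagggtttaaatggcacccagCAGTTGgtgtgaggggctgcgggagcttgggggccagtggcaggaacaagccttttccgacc
Mylpf: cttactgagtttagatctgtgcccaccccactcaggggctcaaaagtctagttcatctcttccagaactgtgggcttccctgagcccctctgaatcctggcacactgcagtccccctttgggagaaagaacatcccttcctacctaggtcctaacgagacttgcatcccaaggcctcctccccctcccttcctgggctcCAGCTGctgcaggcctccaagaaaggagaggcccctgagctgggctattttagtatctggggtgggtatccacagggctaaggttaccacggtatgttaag
Tnnc2: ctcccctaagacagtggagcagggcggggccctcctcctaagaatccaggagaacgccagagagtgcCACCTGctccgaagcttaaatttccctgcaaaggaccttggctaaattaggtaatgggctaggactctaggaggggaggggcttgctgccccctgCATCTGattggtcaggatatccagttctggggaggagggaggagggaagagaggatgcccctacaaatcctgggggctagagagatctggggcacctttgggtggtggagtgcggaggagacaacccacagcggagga
The CANNTG matches begin 138 and 12 bases before the start in Myog, 51 bases before it in Mylpf, and 183 and 88 bases before it in Tnnc2. Of the 15 myotome genes named by rank, 10 had a promoter in the table. CANNTG occurred in 10 of these 10 and in 72.3% of all 32851 promoters of this length, and its special case CAGCTG, which is the one in Mylpf, in 5 of 10 and in 16.3% of all. A match is a description of these letters only.

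Of 8306 genes, 92 (1.11%) were higher in myotome-gated E10.5 cells and 83 (0.999%) lower. Of 7 tested myogenic regulators other than the gate's genes 6 were higher, and of 16 contractile genes 12 were. Neither list had a gene that was lower by 2-fold. Genes that are near 0 in the reference, such as Tnnc2, Myf6 and Myod1, pass the 5 CPM filter only through the gated cells. These counts are thus not over all listed genes. They were partly fixed by the filter and support nothing by themselves.

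The later myogenic factors were found at E10.5 and hardly seen in the few gated E8.5 cells. Myf6, the factor of the differentiated myotome, stood at 41.6 against 0.729 CPM in replicate 1 of E10.5 and at 46.3 against 1.11 CPM in replicate 2, and at 2.08 CPM (1 UMI) in the 17 gated E8.5 cells. Myod1 stood at 16.7 CPM (20 UMIs) in the gated cells of replicate 1, with no UMI in the reference, and at 13.3 against 0.139 CPM in replicate 2. The gated E8.5 cells held no UMI of Myod1. They summed to 481637 UMIs, so 0 UMIs allow up to 6.23 CPM.

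Late muscle genes showed the same order. Tnnc2, troponin C of fast muscle, stood at 84.9 against 0.464 CPM and 75.6 against 0.557 CPM at E10.5, and Mylpf at 97.4 against 5.96 and 108 against 5.09 CPM. At E8.5 neither had a UMI in the gated cells. Tnnt1, a slow troponin T, was already higher at E8.5 at 29.1 against 3.82 CPM (14 UMIs), and stood at 85.8 against 3.58 and 61.8 against 3.41 CPM at E10.5. Ttn, the giant sarcomere protein titin, stood at 19.1 against 0.861 and 47.9 against 0.836 CPM, a range between replicates of over 2-fold in the gated cells, and at 4.15 CPM (2 UMIs) at E8.5. Tmem8c, the membrane protein that fuses myoblasts, stood at 19.1 and 17.0 CPM in gated E10.5 cells with 1 and 0 UMIs in the reference.

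Cell cycle exit genes were higher with muscle genes. Cdkn1a, the cyclin-dependent kinase inhibitor p21, stood at 106 against 8.89 CPM at E8.5 and at 311 against 10.7 and 235 against 9.69 CPM at E10.5. Cdkn1c stood at 187 against 104, 1111 against 196 and 1128 against 204 CPM. These were the called genes among 31 cell cycle genes, whose median was -0.05. Cdh15, the cadherin of muscle precursors, was higher at both stages, with 27.0 against 2.29, 29.1 against 3.05 and 30.3 against 2.65 CPM. Mef2c, a MADS-box partner of the myogenic factors, was higher at E10.5, at 74.9 against 17.4 and 77.2 against 15.8 CPM, but stood at 2.08 against 16.2 CPM at E8.5.

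Of the signalling lists in the myotome gate, 1 of 10 tested FGF genes was higher and 1 lower, 1 of 16 Wnt genes was higher and 3 lower, 3 of 11 retinoic acid genes were lower and 1 of 15 BMP and TGF-beta genes was lower. Fgf8, a ligand of the myotome, stood at 31.1 against 17.0, 38.3 against 15 and 36.2 against 14.1 CPM, and Wnt6 at 45.7 against 10.8, 54.1 against 15.6 and 46.9 against 15 CPM. The lower genes were Fgf18, Wnt5a, Frzb, Rspo3, Aldh1a2, Rarg, Crabp1 and Bmp4, of which Rspo3 stood at 2.08 against 37.9, 7.49 against 65.6 and 7.45 against 49.3 CPM. Sox9 was lower at 6.23 against 34.4, 11.7 against 71.5 and 22.9 against 62.3 CPM, and Ebf1 and Foxd2 were the other lower sclerotome genes among 10 tested. Pdgfra, the receptor of somite mesenchyme, was lower at E10.5 with 9.16 against 33.1 and 12.2 against 27.0 CPM. The heart troponin Tnnt2 was among the higher contractile genes, at 33.3 against 4.11 and 34.1 against 4.46 CPM, and early skeletal muscle is known to express it too.

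**Figure D4:**
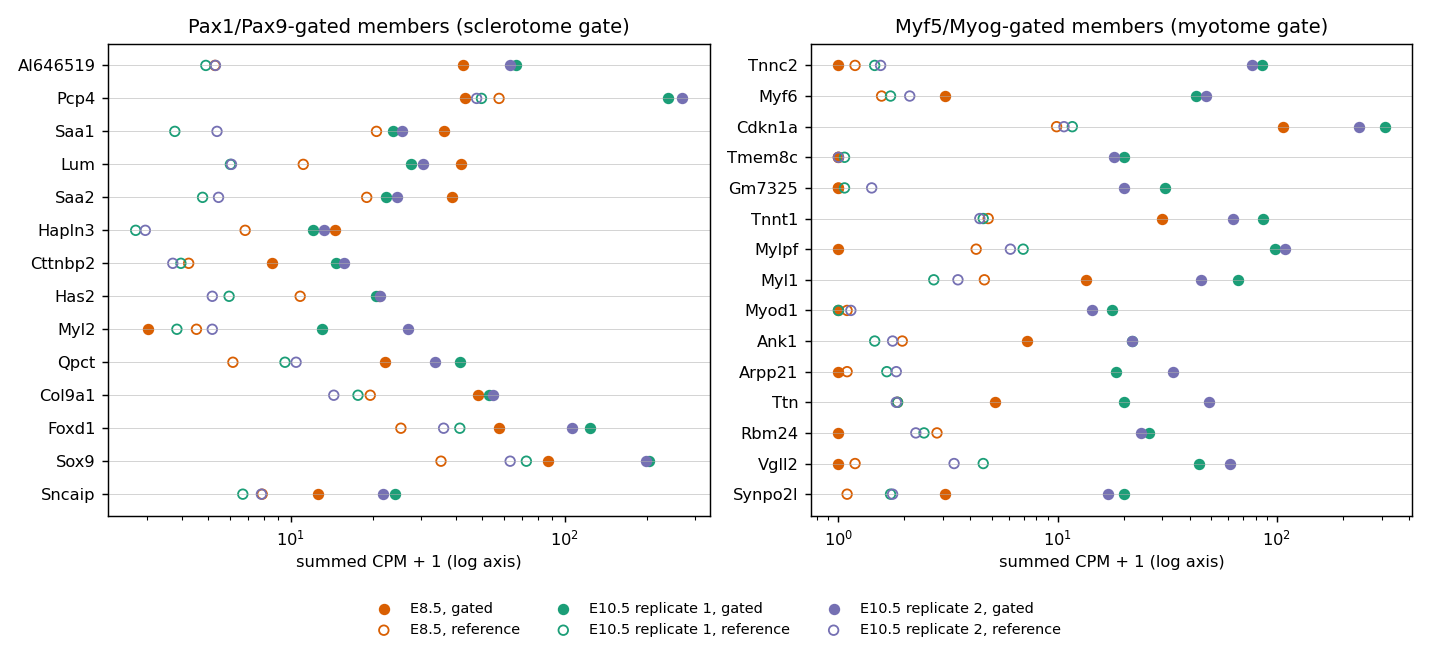
For leading genes of the sclerotome gate (left) and of the myotome gate (right), points give CPM + 1 on a log axis in gated cells (filled) and in reference members with none of Pax1, Pax9, Myf5 and Myog (open). Sox9 and Foxd1 are higher in the gated cells of all 3 libraries, Pcp4 only at E10.5, and Tnnc2, Mylpf and Myod1 are at 0 CPM, drawn at 1, in gated E8.5 cells.

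The dermomyotome gate, chosen after seeing the data, took cells with at least 2 UMIs of Pax3 and Pax7 (137, 377 and 385) against members with none (361, 999 and 923). The gated cells were deeper, at a median of 29291, 20828 and 20367 UMIs against 24167, 16671 and 16431 UMIs. Of 8339 genes 56 (0.672%) were higher and 81 (0.971%) lower, and of 10 tested dermomyotome genes 7 were higher. Dmrt2, Lbx1 and En1 are under 5 CPM in the E10.5 reference and passed the filter only through the gated cells. The count of this list was thus partly fixed by the filter and supports nothing by itself. Dmrt2 stood at 34.7 against 1.71, 47.3 against 3.23 and 52.7 against 4.29 CPM, and Lbx1 at 3.04 against 0.228, 28.8 against 1.27 and 26.5 against 1.07 CPM. En1 stood at 55.7 against 2.71 and 48.1 against 3.85 CPM at E10.5 and at 0.234 against 0.228 CPM at E8.5. This difference between the stages was not tested.

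Myf5 was higher in Pax3 and Pax7 cells of each library, at 7.73 against 1.59, 23.9 against 5.82 and 24.3 against 4.23 CPM. Grem1, a secreted BMP antagonist, stood at 15.5 against 8.53, 15.6 against 3.92 and 20.9 against 3.53 CPM, and Wnt16 at 6.09 against 5.23, 55.3 against 11.9 and 43.7 against 10.9 CPM. The hedgehog co-receptors Boc, Cdon and Gas1 were all higher here, Cdon at 7.03 against 3.98, 19 against 6.45 and 20.9 against 5.93 CPM. Cdon and Gas1 were the pair called lower in the sclerotome gate. Of 13 tested sclerotome genes 7 were lower, and of 11 cartilage genes 7. Genes under 5 CPM in the gated E10.5 cells, such as Lum, passed the filter only through the reference. Counts that include such genes were partly fixed by the filter. Lum stood at 2.58 against 27.5, 2.49 against 16.6 and 2.15 against 20.4 CPM, and Rspo3, a Wnt enhancer, at 13.8 against 50.2, 13 against 88.0 and 19.2 against 80.2 CPM.

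The presomitic gate, also chosen after seeing the data, took members with at least 2 UMIs of Tbx6, Msgn1 and Mesp2 (21, 37 and 27) against those with none (529, 1444 and 1415). These are few cells, and their summed depths are small. Their median depth was 24609, 19548 and 25606 UMIs against 25585, 17619 and 17390 UMIs. Without the cells marked as doublets, 19, 34 and 20 gated cells remained. Of 8388 genes 225 (2.68%) were higher and 181 (2.16%) lower. Of 15 tested clock and presomitic genes 14 were higher. Many of these genes, and several of the FGF and posterior Hox genes below, are under 5 CPM in the reference and passed the filter only through the gated cells, so the counts of these lists were partly fixed by the filter and support nothing by themselves.

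Mesp1, the partner of Mesp2 in early mesoderm, stood at 105 against 1.07, 147 against 0.261 and 126 against 0.190 CPM. Hes7 stood at 203 against 5.06, 270 against 1.90 and 330 against 2.55 CPM, and Dll1 at 91.7 against 1.5, 94.2 against 1.98 and 110 against 2.28 CPM. Lfng, the glycosyltransferase that makes Notch signalling oscillate, stood at 58.6 against 2.71, 72.6 against 3.06 and 75.6 against 3.73 CPM. These clock genes were at like levels at both stages. Ripply2 stood at 400 against 6.34 CPM at E8.5 and at 68.6 against 2.46 and 157 against 0.875 CPM at E10.5, where the replicates differed by over 2-fold.

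FGF and Wnt genes were higher in the same cells. Of 15 tested FGF genes 9 were higher, among them Fgf8 (39.0 against 12.9, 74.0 against 15.5 and 69.6 against 16 CPM) and Fgf18 (56.6 against 9.55, 95.5 against 7.43 and 94.8 against 8.56 CPM). Of 17 Wnt genes 7 were higher and 1 lower. Lef1, a nuclear effector of Wnt signals, stood at 160 against 23.0, 221 against 26.6 and 203 against 26.1 CPM, and T at 21.5 against 9.48, 79.4 against 1.34 and 53.3 against 2.24 CPM. Cyp26a1, which breaks down retinoic acid in the tail bud, was found at E10.5 at 33.6 against 2.46 and 22.2 against 3.35 CPM and had no UMI in the 21 gated E8.5 cells.

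Of 18 tested genes of the somite list 5 were higher in the presomitic gate (Foxc1, Foxc2, Epha4, Efnb2 and Snai1) and 5 lower (Meox2, Uncx, Tbx18, Twist1 and Eya1). Meox2 stood at 1.95 against 41.3, 4.04 against 44.6 and 1.48 against 42.1 CPM, and Twist1 at 11.7 against 39.6, 71.3 against 253 and 66.7 against 224 CPM. Meox2 is under 5 CPM in the gated E10.5 cells and passed the filter only through the reference. Counts of lower genes that include such genes were partly fixed by the filter. Of 11 tested sclerotome genes 9 were lower and none higher. Foxc1 (113 against 39.8, 121 against 59.2 and 127 against 58.6 CPM) and Foxc2 (117 against 45.0, 117 against 35.2 and 119 against 32.1 CPM) were among the higher ones.

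Several posterior Hox genes stood at unlike levels in the presomitic-gated cells of E8.5 and of E10.5. The difference between the stages was not tested. Of 11 tested genes of paralogs 9 to 13, 10 were higher in the gated E10.5 cells, some of which passed the filter only through those cells. Hoxa9 was high at both stages, at 74.2 against 4.06 CPM at E8.5 and at 90.1 against 19.5 and 78.5 against 18.6 CPM at E10.5. Hoxc10 stood at 23.4 against 1.92 CPM at E8.5 and at 397 against 31.9 and 379 against 25.7 CPM at E10.5. Hoxd11 had no UMI in the gated E8.5 cells and stood at 195 against 5.30 and 196 against 4.68 CPM at E10.5. Hoxd13, the last gene of its cluster, stood at 26.9 against 0.635 and 35.6 against 0.761 CPM at E10.5 and at 1.95 CPM (1 UMI) at E8.5. Hoxa10 likewise had no UMI at E8.5 and stood at 130 against 13.3 and 102 against 12.1 CPM at E10.5. Genes of paralog 9 were thus at like levels in gated cells of both stages, while paralogs 10 to 13 were at or near 0 at E8.5 except for Hoxc10. The 21 gated E8.5 cells summed to 512298 UMIs, so 0 UMIs allow up to 5.86 CPM. Hoxaas3, a noncoding RNA antisense to the HoxA cluster, stood at 273 against 21.5, 469 against 14.6 and 410 against 15 CPM, and without knowledge of the strand its UMIs and those of overlapping HoxA genes cannot be told apart.

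**Figure D5:**
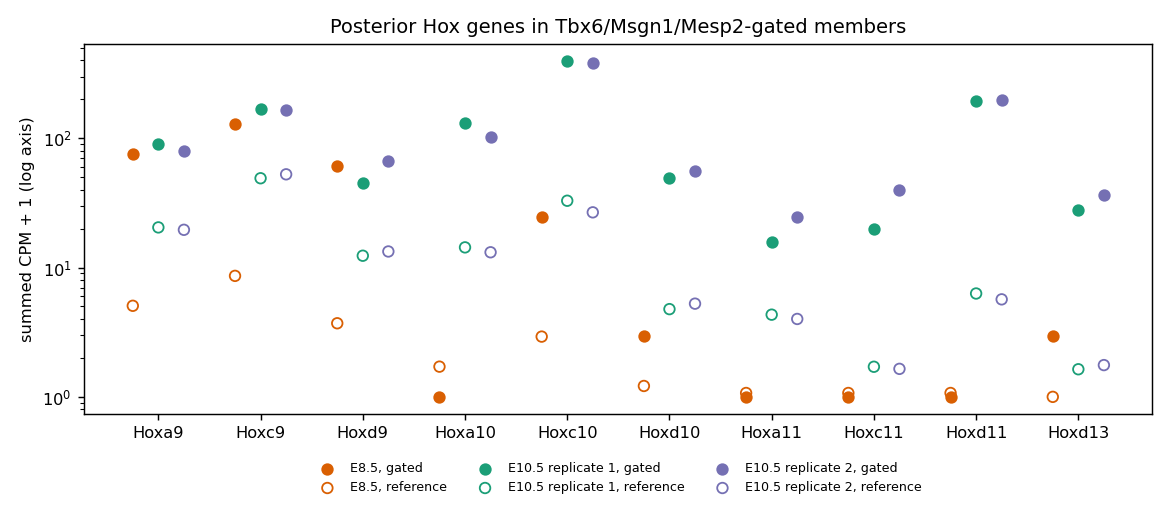
Points give CPM + 1 on a log axis for 10 posterior Hox genes in members with at least 2 UMIs of Tbx6, Msgn1 and Mesp2 (filled) and in members with none (open). In gated cells Hoxa9, Hoxc9 and Hoxd9 lie close together across the stages, while Hoxa10, Hoxa11, Hoxc11 and Hoxd11 are at 0 CPM, drawn at 1, in E8.5 and high in both E10.5 libraries.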

How the data were processed

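The data were 10x Genomics 3' single-cell RNA-seq of mouse embryos. As deposited by the authors, the matrices hold UMI counts by gene and cell barcode on build mm10, unfiltered except for that of postnatal day 3, which lists 10964 barcodes. The submitters' processing notes name Cell Ranger 2.1.1 and Seurat 3.1.1, while the file headers of the embryo matrices name Cell Ranger 3.1.0, and the labels and the study's methods differ on the digestion enzyme and the chemistry version. 

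Barcodes with at least 2000 UMIs and 500 genes were kept. Each cell was thinned to 2000 UMIs for shares. Scrublet (scanpy 1.11.5) scored doublets, and since its own cut marked 3, 0 and 384 barcodes, the expected number (0.8% per 1000 barcodes) was marked instead; marked cells stayed in. UMIs were summed over the cells of a group in a library and scaled to CPM. Genes with a mean of at least 5 CPM were compared on log2(CPM + 1). The 20 leading genes for each stage and the 15 for each gate were named by the smaller of both E10.5 folds, besides genes of 22 lists with at least 5 CPM in a library. Some of these genes are not reported here. Members, gates and lists were chosen with earlier results of these data known, and the members were chosen from the counts described, so no p-value was computed. The gene comparison was run on simulated counts drawn from an E10.5 member profile, with changes larger than 2-fold and no spread between libraries. It cannot show how the calls fare near 2-fold or with such spread. Intervals cover counting error only. Where a count was 0, the share or level it allows is 3 counts over the cells or UMIs, not the limit of the exact interval. Python 3.11.15, R 4.3.3 and edgeR 4.0.16 (TMM factors, as an alternative) were used. Coordinates are from the annotation of mm10.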

Additional observations from a re-analysis of the deposited data

Results flagged for a closer look

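Barcodes that met the rule were also found in the heart matrices, which the comparisons did not use: 7.5% and 6.80% in the E12.5 hearts, 5.76% and 6.09% in those of E14.5, 3.23% and 3.03% in those of E16.5 and 3.56% in those of postnatal day 3. These are signals in data outside the embryo comparison. Between 5.50% and 14.9% of them carried both Meox1 and Tcf15, against 79.8% to 80.9% in the embryo libraries, and between 72.3% and 92.6% carried Meox1 without Tcf15.

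In a few genes called higher in both E10.5 libraries the log2 fold of gated over reference cells had the opposite sign at E8.5, among named and listed genes with at least 10 UMIs in both E8.5 groups. It was -0.42 for Pcp4 and -0.21 for Uncx in the sclerotome gate and -0.11 for Eya2 in the dermomyotome gate. The difference between the stages was not tested, since E8.5 had 1 library.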

How the results depend on the processing

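No paired analysis was possible because the replicate numbers here were given in accession order and no result came from a test. Of 114 alternative values 70 moved by less than the spread or kept the count within 1.5 times and 44 moved. Depth limits the shares, since a gene is seen in more cells when more UMIs are read. Asking for 2 gate UMIs also moved the sclerotome and myotome shares. The 17 myotome-gated and 21 presomitic-gated E8.5 cells limit what 0 UMIs can show there.

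The E8.5 member share (10.2%) was 12.1% at 2 or more UMIs of Meox1 and Tcf15, 8.29% at 5 or more, 8.26% with both genes required and 5.98% in cells thinned to 5000 UMIs. The E10.5 mean share (10.2%) was 12.49%, 7.80%, 8.20% and 6.83% under the same settings, 10.4% each under the mitochondrial ceiling, without doublets and without globin-rich barcodes, and 10.2% to 10.3% with 1 replicate left out. The E8.5 sclerotome share (2.60%) was 22% without thinning, 8.35% thinned to 5000 UMIs and 0.347% at 2 gate UMIs. The E10.5 mean (11.8%) was 36.9%, 22.5% and 2.79%, 13.2% at 5 or more rule UMIs, and 10.8% to 12.8% with 1 replicate left out. The E8.5 myotome share (1.21%) was 7.63% without thinning and 0.173% at 2 gate UMIs. The E10.5 mean (2.97%) was 11.6% and 1.01%, 6.00% thinned to 5000 UMIs, 3.19% without doublets, and 2.93% to 3.00% with 1 replicate left out.

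The 178 genes higher at E8.5 became 115 with a pseudocount of 5 CPM and 311 with TMM factors, and 207 to 212 with 1 E10.5 replicate left out. The 308 higher at E10.5 became 177 with that pseudocount, 534 with no filter, 127 with a filter of 20 CPM and 239 with TMM, and 346 to 365 with 1 replicate left out. The 39 sclerotome-gated genes became 25 with a pseudocount of 5 CPM and 20 with the filter of 20 CPM, and 59 to 68 with 1 replicate left out. The 92 myotome-gated genes became 185 with no filter and 41 with the filter of 20 CPM, and 141 to 142. The 56 dermomyotome-gated genes became 33, 87 and 17 with the pseudocount, no filter and the filter of 20 CPM, and 68 to 71. The 225 presomitic-gated genes became 371 and 121 with no filter and the filter of 20 CPM, and 437 to 470. Counts grow when a replicate is left out because a gene then has to pass in 1 library. With both Meox1 and Tcf15 required, an alternative added after seeing the data, 170 of the 178 and 279 of the 308 genes were called again.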

Other observations

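Matrix genes divided in the presomitic gate, in values not used above. Fn1, the fibronectin on which somites form, stood at 176 against 52.6 CPM at E8.5 and at 165 against 52.0 and 163 against 49.7 CPM in the E10.5 replicates, and Lama1, a laminin of early basement membranes, at 5.86 against 4.56, 18.8 against 4.82 and 19.3 against 3.73 CPM. The basement membrane collagen Col4a1 was lower, at 15.6 against 29.4, 18.8 against 54.0 and 20.7 against 49.1 CPM. Tpm1, a tropomyosin, stood at 556 against 247, 1225 against 296 and 1139 against 289 CPM. Mest, an imprinted gene of mesoderm, stood at 89.8 against 857, 316 against 1333 and 256 against 1371 CPM, and Btg2, an antiproliferative gene, at 62.5 against 4.78, 84.7 against 7.32 and 91.9 against 7.95 CPM.

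Of 11 tested heterochronic and early embryo genes 3 were higher in the same cells at E10.5 (Lin28a, Mycn and Sall4) and Myc was lower. Among all genes tested in that gate, 2.68% were higher and 2.16% lower. Sall4, a zinc finger factor of embryonic progenitors, stood at 114 against 26.5 and 113 against 28 CPM and at 44.9 against 31.2 CPM at E8.5. Lin28a stood at 69.9 against 21.5 and 53.3 against 21.5 CPM at E10.5 and at 62.5 against 47.1 CPM at E8.5. Hoxb1, an anterior Hox gene, stood at 144 against 25.9 CPM at E8.5 and at 188 against 14.3 and 170 against 12.48 CPM at E10.5, so an anterior paralog was high together with the posterior ones. The difference between the stages was not tested for any of these genes.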
